A study of Mus musculus with 6 samples.

Results

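The genes studied here synthesise, phosphorylate, reduce or consume nicotinamide adenine dinucleotide (NAD). They are 10 genes chosen by name, *Nampt*, *Naprt*, *Nmnat1*, *Nmnat2*, *Nmnat3*, *Nadk*, *Nadk2*, *Nnt*, *Cd38* and *Parp1*, and all 10 symbols matched an Ensembl gene among the 53465 genes counted. RNA was sequenced from 6 pools of oocytes of female Kunming (KM) mice, an outbred stock, aged 9 to 10 months. All oocytes had reached the MII stage (metaphase of the second meiotic division) after in vitro maturation (IVM). In 3 control pools no quercetin was added, in 3 quercetin pools the flavonol was present at 10 μM, and the groups carry no genetic modification in the labels. Each pool combined 15 oocytes from 3 mice, so a value describes a pool, and fewer oocytes with a transcript cannot be told apart from less RNA per oocyte.

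NAD accepts electrons in glycolysis, the TCA cycle and fatty acid oxidation, and its reduced form feeds the mitochondrial respiratory chain. Most cells rebuild it from nicotinamide, which NAMPT converts to nicotinamide mononucleotide (NMN) and the NMNAT enzymes then convert to NAD. NAD kinases add a phosphate to give NADP, whose reduced form supplies the glutathione and thioredoxin systems. CD38, the poly(ADP-ribose) polymerases and the sirtuins cleave NAD, and falling NAD has been linked to ovarian ageing in mice.

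The 3 genes of NMN adenylyl transfer (*Nmnat1* to *Nmnat3*) are paralogues, so the starts of the *Nmnat2* and *Nmnat3* coding sequences are shown to let a reader see how readily their reads can be separated. The sequences are the first 90 coding bases of GENCODE release M21 transcripts on GRCm38, 5′ to 3′, with the start codon in capitals.
Nmnat2: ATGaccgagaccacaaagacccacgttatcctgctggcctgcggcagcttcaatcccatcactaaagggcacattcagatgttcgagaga
Nmnat3: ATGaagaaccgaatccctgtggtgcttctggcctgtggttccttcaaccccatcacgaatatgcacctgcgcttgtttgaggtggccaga
The *Nmnat3* stretch lies in 1 exon on chromosome 9 (98354056 to 98354145, plus strand). The *Nmnat2* stretch is split over 2 exons on chromosome 1, between 152955109 and 153073801 on the plus strand. Over the whole coding sequences, of 921 bases in *Nmnat2* and 735 in *Nmnat3*, the longest run of identical bases was 14. Words of 31 bases shared with any other gene made up 8.39% of the *Nmnat1* transcripts, 0.327% of those of *Nmnat2* and 0% of those of *Nmnat3*.

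Promoters are shown for 3 genes, a salvage enzyme (*Nampt*), the most abundant NMNAT gene (*Nmnat2*) and a hydrolase at or near 0 counts (*Cd38*). Each is the RefSeq window from 250 bases before to 50 bases after the annotated start on GRCm38.p6, on the strand of the gene, with CG dinucleotides in capitals. They lie at chr12:32820085-32820384, chr1:152954851-152955150 and chr5:43868559-43868858, all on the plus strand.
Nampt: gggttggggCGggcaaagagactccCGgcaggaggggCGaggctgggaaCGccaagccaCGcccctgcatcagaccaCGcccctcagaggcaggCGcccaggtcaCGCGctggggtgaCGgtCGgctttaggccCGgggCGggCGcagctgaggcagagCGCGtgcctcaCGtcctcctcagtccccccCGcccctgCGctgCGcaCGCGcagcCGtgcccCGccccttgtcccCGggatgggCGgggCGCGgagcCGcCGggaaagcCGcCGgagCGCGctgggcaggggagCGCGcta
Nmnat2: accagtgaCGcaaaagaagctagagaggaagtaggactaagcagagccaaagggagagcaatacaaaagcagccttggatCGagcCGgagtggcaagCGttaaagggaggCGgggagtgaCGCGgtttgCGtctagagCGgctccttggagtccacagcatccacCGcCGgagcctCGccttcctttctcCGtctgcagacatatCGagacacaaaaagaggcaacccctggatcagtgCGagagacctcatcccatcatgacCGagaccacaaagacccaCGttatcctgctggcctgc
Cd38: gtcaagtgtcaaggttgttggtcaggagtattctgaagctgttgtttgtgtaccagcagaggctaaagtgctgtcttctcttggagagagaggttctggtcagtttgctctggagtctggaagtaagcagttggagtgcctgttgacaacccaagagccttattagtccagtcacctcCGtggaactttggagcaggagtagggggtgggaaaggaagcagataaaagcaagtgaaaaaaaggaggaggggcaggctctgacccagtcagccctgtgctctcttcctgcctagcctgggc
The *Nampt* window held 36 CG dinucleotides, that of *Nmnat2* 17 and that of *Cd38* 1, against a median of 7 over 32851 promoter windows of this length. A promoter entry was matched for 7 of the 10 genes, in 9 windows. The remaining windows held 28 CG dinucleotides for each of 2 starts of *Nmnat1*, 13 for *Nmnat3*, 20 for *Parp1*, and 4 and 24 for 2 starts of *Nadk*. The number of CG dinucleotides was not tested against transcript level, and *Nampt* and *Nmnat2* overlapped in level. The letters CACGTG, the E-box, which read the same on both strands, occurred in the *Parp1* window and in the second *Nadk* window, and in 7.15% of all windows. The letters TATAAA occurred on either strand in 0 of the 9 windows and in 13.6% of all windows.

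Total counts ran from 7880467 to 9938743 per pool, and a gene at 3 counts, the smallest number taken to show it, stood at 0.302 to 0.381 CPM (read counts relative to the library size, here without TMM scaling). The reads carry no molecular identifiers, so this floor and all counting intervals cover counting error only. All 9 oocyte markers examined, among them *Gdf9* and *Zp3*, had counts, with a summed level of 15910 to 19801 CPM in control pools and 17503 to 19194 CPM in quercetin pools. Of 12 cumulus and granulosa markers 8 had at least 1 count, while *Amh*, *Amhr2*, *Foxl2* and *Ptx3* had 0 counts in every pool. Their summed level was 62.6 to 77.8 CPM in control pools and 79.0 to 84.9 CPM in quercetin pools. Without *Cyp19a1*, singled out after its values were seen, the sums were 4.31 to 11.2 and 6.10 to 10.2 CPM. Of 8 leukocyte markers 6 had at least 1 count, with *Cd3e* and *Cd79a* at 0 counts in every pool, and their sums were 10.7 to 17.3 and 12.7 to 13.9 CPM.

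To compare levels between genes, CPM scaled by edgeR's TMM method were divided by the exon length in kb. *Nadk* stood highest, at 11.5 ± 7.06 CPM per kb over all pools (SD, n = 6), above *Nmnat2* at 2.45 ± 0.512 CPM per kb (SD, n = 6) in 6 of 6 pools and without overlap. *Nampt* (1.77 ± 0.305), *Nnt* (1.31 ± 1.37), *Nadk2* (1.26 ± 0.340) and *Parp1* (1.23 ± 0.258 CPM per kb, SD, n = 6) followed. From *Nmnat2* down to *Parp1* each gene overlapped its neighbour in this order, so no neighbouring pair of these 5 genes was apart in range. Compared within pools, *Nmnat2* was above *Nampt* in 5 of 6 and *Nampt* above *Nnt* in 4. *Nnt* was above *Nadk2* in 4 pools and *Nadk2* above *Parp1* in 2. *Parp1* was above *Nmnat1* (0.204 ± 0.123 CPM per kb, SD, n = 6) in 6 of 6 pools without overlap. *Nmnat3*, *Cd38* and *Naprt* stood at 0.0268, 0.0251 and 0 CPM per kb. Among the 11842 genes tested, 73.5% lay below the level of *Nadk* per kb, 43.2% below *Nmnat2* and 28.2% below *Parp1*.

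**Figure D1:**
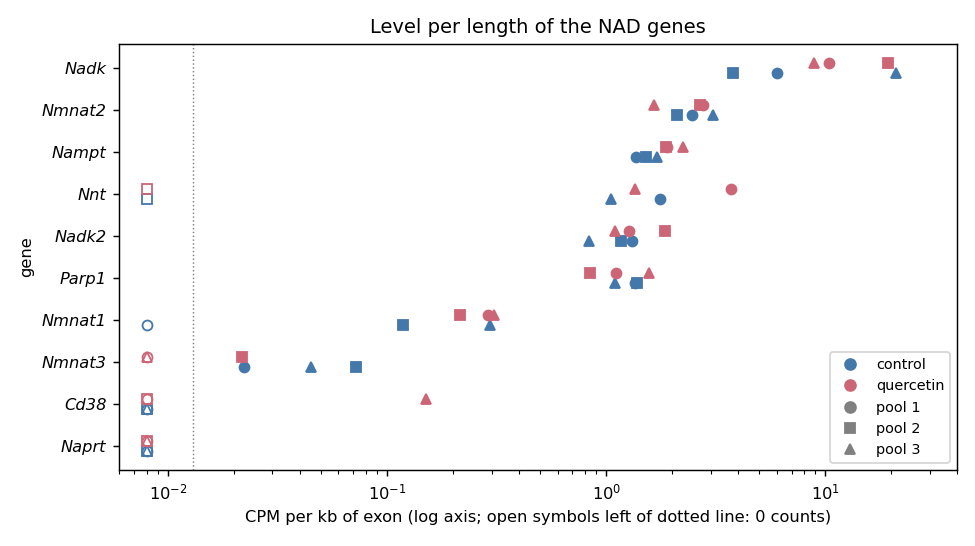
Level of each NAD gene in CPM per kb of exon (log axis), with control pools in blue, quercetin pools in red and the pool number as the marker shape. Open symbols left of the dotted line mark 0 counts. *Nadk* stands highest in every pool, and *Nnt* is at 0 counts in both pools numbered 2.

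*Nampt* (ENSMUSG00000020572, chromosome 12 from 32819545 to 32853349), the rate-limiting enzyme of nicotinamide salvage, had 62, 64 and 77 counts in the control pools and 77, 87 and 96 in the quercetin pools. In CPM these were 6.94, 7.67 and 8.64 against 9.62, 9.51 and 11.3, so every quercetin pool lay above every control pool, by TMM and by library size alike. The means were 7.75 ± 0.853 and 10.1 ± 0.983 CPM (SD, n = 3). Quercetin over control gave a log2 fold change of 0.39 (standard error 0.23, 95% confidence interval -0.13 to 0.90), which did not pass edgeR's quasi-likelihood test (adjusted p = 0.988, Benjamini-Hochberg across the tested genes). Groups that did not overlap, with quercetin higher, were found for 5.42% of all tested genes, and for 1 of the 6 NAD genes tested. With quercetin lower they were found for 5.17% of all tested genes and for 0 of the 6. The summed cumulus markers also lay higher in every quercetin pool. Without *Cyp19a1* the sums overlapped, at 4.31 to 11.2 CPM in control pools and 6.10 to 10.2 CPM in quercetin pools. Singly, *Cyp19a1* and *Tnfaip6* did not overlap, *Tnfaip6* having 0 counts in every control pool and 2, 8 and 4 in the quercetin pools. The other cumulus markers with counts overlapped. The part of these markers in the *Nampt* values was not tested. *Naprt* (ENSMUSG00000022574, chromosome 15 from 75890956 to 75894481), which starts the salvage of nicotinic acid, had 0 counts in all 6 pools. A count of 0 was taken to allow 3 counts, which is 0.302 to 0.381 CPM by unscaled library size, depending on the pool. Of its exon length, 11.8% overlaps *Eef1d* on the same strand.

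Of the NMNAT enzymes, which join NMN and ATP into NAD, *Nmnat2* (ENSMUSG00000042751, chromosome 1 from 152954993 to 153119261) carried between 84.2% and 99.1% of the summed level per kb in a pool. NMNAT2 is the Golgi and cytosolic enzyme, best known for keeping axons intact. *Nmnat2* had 127, 101 and 158 counts in the controls and 128, 142 and 81 in quercetin pools. In CPM, quercetin pools 1 and 2 lay inside the control range, and quercetin pool 3, at 9.50 CPM, was the lowest of all 6. The log2 fold change was -0.10 (standard error 0.27, 95% confidence interval -0.71 to 0.51), within the spread of the pools, and it was 0.065 without control pool 3 and 0.10 without quercetin pool 3.

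*Nmnat1* (ENSMUSG00000028992, chromosome 4 from 149467572 to 149485202), the nuclear enzyme, had 0, 3 and 8 counts in the controls and 7, 6 and 8 in quercetin pools. It was too low for the comparison across genes, the groups overlapped, and a two-sided exact permutation test of its log2 CPM gave p = 0.3. *Nmnat3* (ENSMUSG00000032456, chromosome 9 from 98287435 to 98420438), whose product is mitochondrial, had 1, 3 and 2 counts in the controls and 0, 1 and 0 in quercetin pools. The groups did not overlap in CPM only because 1 count was 0.112 CPM in control pool 1 and 0.109 CPM in quercetin pool 2. The two-sided exact permutation test gave p = 0.1, the smallest that 3 pools against 3 can give, and no fold is given because both groups were at or under 3 counts per pool.

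**Figure D2:**
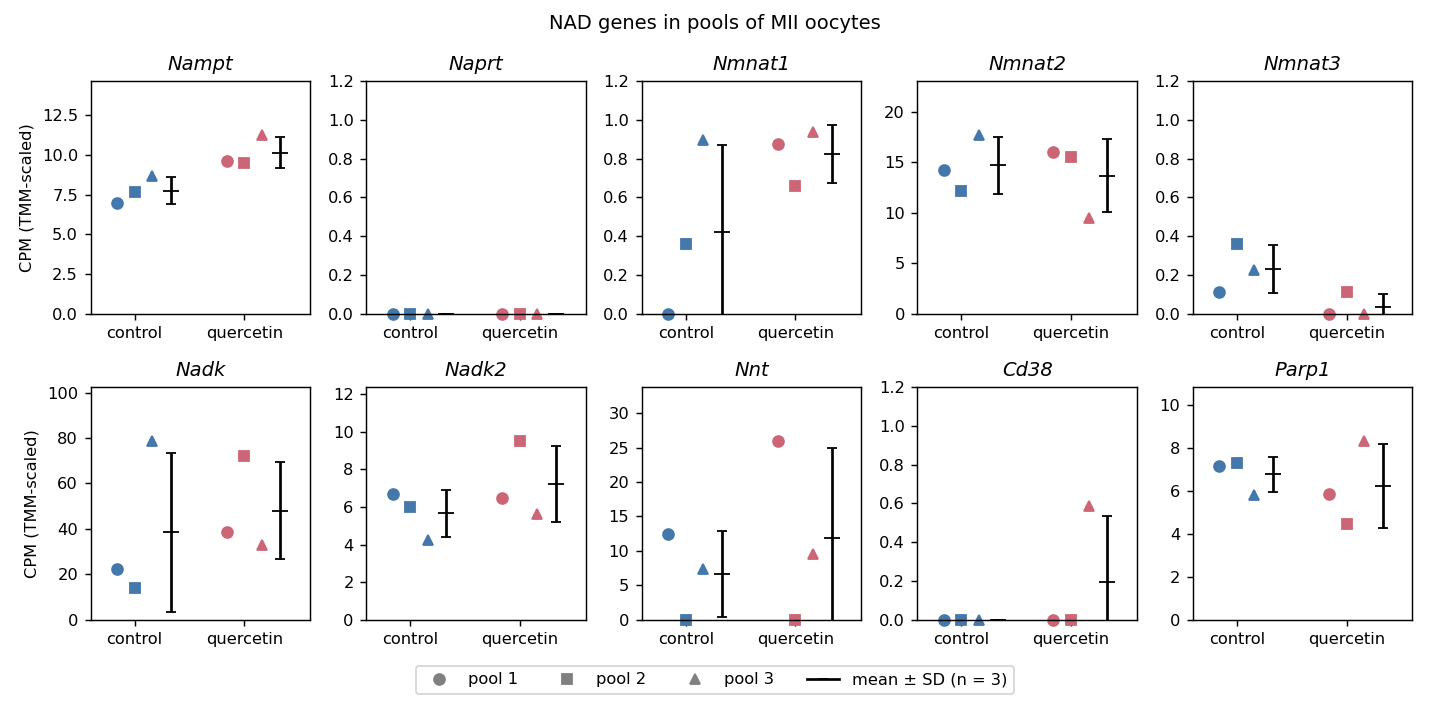
TMM-scaled CPM of each NAD gene in the 3 control (blue) and 3 quercetin (red) pools, with the pool number as the marker shape and the mean ± SD in black, each panel on its own axis from 0, where bars reaching below it end. *Nampt* is higher in every quercetin pool, *Nadk* ranges from 14.1 to 78.7 CPM, and *Nnt* is at 0 in both pools numbered 2.

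*Nadk* (ENSMUSG00000029063, chromosome 4 from 155562378 to 155591001), the cytosolic NAD kinase, varied most among the genes seen in every pool. It had 201, 118 and 702 counts in the control pools and 310, 661 and 282 in the quercetin pools. Both the lowest and the highest pool were controls, with 14.1 CPM in pool 2 (exact Poisson 95% interval 11.7 to 16.9) and 78.7 CPM in pool 3 (73.0 to 84.8), a range of 5.57-fold. Its biological coefficient of variation, the spread between pools of a group beyond counting error, was 0.494, above that of 96.4% of the tested genes, whose median was 0.249. The log2 fold change of *Nadk* was 0.32 (standard error 0.57, 95% confidence interval -0.98 to 1.62). Without control pool 3 it was 1.40 (standard error 0.40) with an unadjusted p = 0.00807 and an adjusted p = 0.991 in edgeR's quasi-likelihood test. Without control pool 2 it was -0.074, and without quercetin pool 2 it was -0.099, so its direction rested on single pools.

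*Nadk2* (ENSMUSG00000022253, chromosome 15 from 9071260 to 9110891), the mitochondrial NAD kinase, was steadier. It had 60, 50 and 38 counts in the controls and 52, 87 and 48 in quercetin pools, with overlap and the highest value in quercetin pool 2. The log2 fold change was 0.35 (standard error 0.31, 95% confidence interval -0.34 to 1.04), and it was 0.10 without quercetin pool 2 and 0.19 without control pool 3. Per kb, *Nadk* exceeded *Nadk2* by 3.22- to 25.2-fold, both extremes being control pools. No 31-base word of either kinase occurs in another annotated gene.

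*Nnt* (ENSMUSG00000025453, chromosome 13 from 119335448 to 119408997) encodes the inner mitochondrial membrane transhydrogenase, which uses the proton gradient to pass electrons from NADH to NADP. It had 111, 0 and 66 counts in the control pools and 208, 0 and 81 in the quercetin pools. The 0 values belonged to the pool numbered 2 in each group, while the other 4 pools stood at 7.40 to 26.0 CPM. On the same TMM scale, the exact Poisson 95% upper bound of a count of 0 was 0.442 CPM in control pool 2 and 0.403 CPM in quercetin pool 2. Of the tested genes, 2 had 0 counts in both pools numbered 2 and at least 10 in each of the other 4, *Nnt* and *4921529L05Rik*. The same pattern was met by 0 genes for the pools numbered 1 and by 1, *Il20ra*, for those numbered 3.

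The biological coefficient of variation of *Nnt*, 1.34, was above that of 99.9% of tested genes. Its log2 fold change was 0.83 (standard error 1.32, 95% confidence interval -2.15 to 3.81). Without both pools numbered 2, a comparison added after the data were seen, it was 0.84 (standard error 0.51, adjusted p = 1.00 in edgeR's quasi-likelihood test). Without quercetin pool 1 it was -0.49, without control pool 1 it was 1.66, and limma-voom gave 0.20 (standard error 2.52). GENCODE release M21 lists *Nnt* under 2 gene identifiers on the same strand. The first, ENSMUSG00000025453, is the one counted here, while ENSMUSG00000116207 (chromosome 13 from 119335528 to 119408952) is absent from the genes counted. The second covers 47.4% of the exon length of the first. The reference genome comes from C57BL/6J, a strain known to lack part of *Nnt*, so reads from the missing exons have no place in that reference. This holds for every pool alike, and the cause of the 0 counts in the pools numbered 2 was not tested.

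Of the NAD consumers, *Parp1* (ENSMUSG00000026496, chromosome 1 from 180568924 to 180601254), which builds poly(ADP-ribose) at DNA breaks, had 64, 61 and 52 counts in the controls and 47, 41 and 71 in quercetin pools. The lowest and the highest pool were both quercetin pools, numbered 2 and 3. Its log2 fold change was -0.12 (standard error 0.30, 95% confidence interval -0.79 to 0.55), and it was 0.072 without quercetin pool 2. *Cd38* (ENSMUSG00000029084, chromosome 5 from 43868553 to 43912375), an ectoenzyme that hydrolyses NAD and is abundant on leukocytes, had 5 counts in quercetin pool 3 and 0 in each of the other 5 pools. These 5 counts were 0.587 CPM (exact Poisson 95% interval 0.190 to 1.37), and no difference was detectable at this depth. The summed leukocyte markers, at 12.7 to 13.9 CPM in the quercetin pools, lay within the range of the controls. Most of the sum was *Csf1r*, with means of 9.62 CPM in control and 9.03 CPM in quercetin pools, and *Cd68*, with 2.80 and 2.83 CPM. *Ptprc* had 4, 1 and 0 counts in the controls and 4, 0 and 5 in quercetin pools. The part of the leukocyte markers in the *Cd38* count was not tested.

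Across genes, 0 of 11842 met an adjusted p under 0.05 with a fold change over 2, or 0%, in edgeR's quasi-likelihood test, and DESeq2 called 12 genes, edgeR's likelihood ratio test 16 and limma-voom 0. Of the 10 NAD genes, 6 were tested, 3 had counts but fell below the filter and 1 had 0 counts. At an unadjusted p under 0.05 stood 477 genes, or 4.03% of those tested, and 0 of the 6 NAD genes, by any of these tools. The log2 fold change was above 0 for 4 of the 6, against 46.4% of all tested genes, with a median of 0.34 against -0.026. The adjusted p of the 6 ran from 0.988 to 0.994 in edgeR's quasi-likelihood test. The intervals of *Nampt*, *Nmnat2* and *Parp1* lay within a 2-fold change in either direction, while those of *Nadk2*, *Nadk* and *Nnt* did not.

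**Figure D3:**
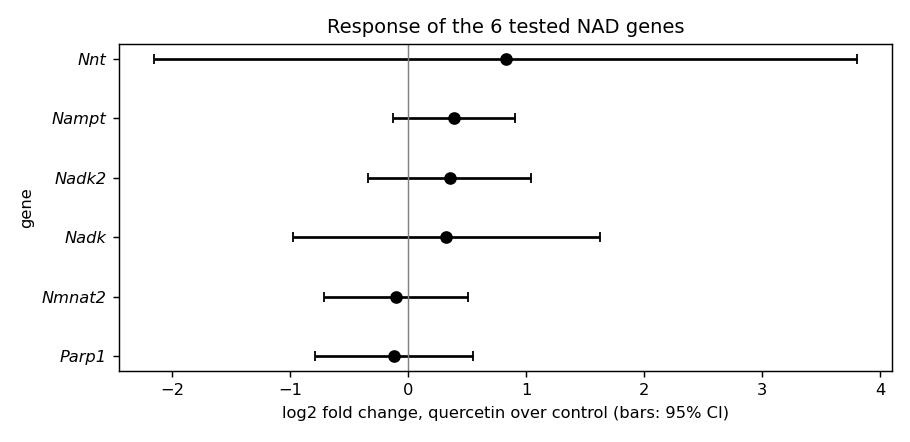
Log2 fold change of quercetin over control for the 6 tested NAD genes, with bars for the 95% confidence interval. Each interval includes 0, and that of *Nnt*, from -2.15 to 3.81, is the widest of the 6.

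Other genes of NAD metabolism were taken from 5 lists of 53 genes, of which 32 were tested, 12 had at least 1 count but fell below the filter and 9 had 0 counts in every pool. The adjusted test was passed by 0 of the 32. At an unadjusted p under 0.05, 3 of the 32 stood higher with quercetin, against 2.14% of all tested genes, and 0 lower, against 1.89%. Their median log2 fold change was 0.022, and 17 of the 32 were above 0. The groups did not overlap for 4 of the 32 with quercetin higher, *Pnp*, *Tiparp*, *Sirt4* and *Idh1*, and for 2 with quercetin lower, *Afmid* and *Parp16*, against 5.42% and 5.17% of all tested genes.

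In the other synthesis routes, 6 of 14 genes were tested. *Pnp*, the purine nucleoside phosphorylase that also cleaves nicotinamide riboside, had 2732, 1957 and 2213 counts in the controls and 2839, 3115 and 2741 in quercetin pools. Its log2 fold change was 0.37 (standard error 0.15, unadjusted p = 0.0338, adjusted p = 0.988 in edgeR's quasi-likelihood test), but 25.7% of its 31-base words occur in other genes, *Pnp2* and *Gm49342* among them, between which reads can be split. *Nmrk1*, a nicotinamide riboside kinase, had 39, 31 and 37 counts in the controls and 0, 37 and 24 in quercetin pools, so the 0 stood in quercetin pool 1. In the tryptophan route, *Tdo2* (17 to 40 counts), which opens it, *Afmid* (6 to 15) and *Kynu* (3 to 26) were tested. *Afmid*, the formamidase, had 12, 15 and 11 counts in control and 7, 8 and 6 with quercetin, which is -0.82 on the log2 scale (standard error 0.42). *Haao*, *Qprt* and *Ido1* had 0 counts in every pool, as did *Nmrk2* and *Nt5e*. *Naprt* and *Qprt* supply nicotinic acid mononucleotide, and neither was detected.

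The next list joined other PARP family genes, which transfer ADP-ribose to proteins, NAD glycohydrolases and the glycohydrolase that removes poly(ADP-ribose). Of its 17 genes, 11 were tested. *Tiparp* and *Parp12*, both mono-ADP-ribosyltransferases, stood highest of these, at 497 and 199.9 CPM per kb, against 1.23 for *Parp1*. *Tiparp*, a known target of the aryl hydrocarbon receptor, had a log2 fold change of 0.14 (standard error 0.13), and *Parp12* of -0.051 (standard error 0.20). *Parp16*, a mono-ADP-ribosyltransferase of the endoplasmic reticulum, had 16, 26 and 18 counts in control and 6, 8 and 15 with quercetin, which is -1.02 on the log2 scale (standard error 0.46). *Bst1*, the glycohydrolase related to *Cd38*, and *Parp10* had 0 counts in every pool.

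All 7 sirtuins, NAD-dependent deacylases, were tested. *Sirt4*, a mitochondrial member, stood highest at 30.8 CPM per kb, followed by *Sirt1* at 14.0 CPM per kb. *Sirt4* had 604, 500 and 581 counts in the controls and 774, 718 and 642 in quercetin pools. Its log2 fold change was 0.38 (standard error 0.16, unadjusted p = 0.0447, adjusted p = 0.988 in edgeR's quasi-likelihood test), and that of *Sirt1* was -0.082 (standard error 0.18).

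Of 8 genes of NAD transport, repair and clearance, 3 were tested. *Nudt12*, an NADH pyrophosphatase, had 57, 38 and 56 counts in the controls and 50, 81 and 47 in quercetin pools. *Slc25a51*, the mitochondrial NAD carrier, had 26, 17 and 33 counts in the controls and 20, 131 and 21 in quercetin pools, so only quercetin pool 2 lay above the controls. *Nudt13* and *Aox1* had 0 counts in every pool.

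Of 7 NADPH-producing dehydrogenases, 5 were tested. *Me1*, cytosolic malic enzyme, stood at 75.8 CPM per kb, but 36.9% of its 31-base words occur in other annotated genes. *Idh1*, cytosolic isocitrate dehydrogenase, had 833, 600 and 857 counts in the controls and 907, 1138 and 903 in quercetin pools. Its log2 fold change was 0.40 (standard error 0.16, unadjusted p = 0.0394, adjusted p = 0.988 in edgeR's quasi-likelihood test). Its mitochondrial counterpart *Idh2* had 3 counts in quercetin pool 3 and 0 in the other 5 pools.

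**Figure D4:**
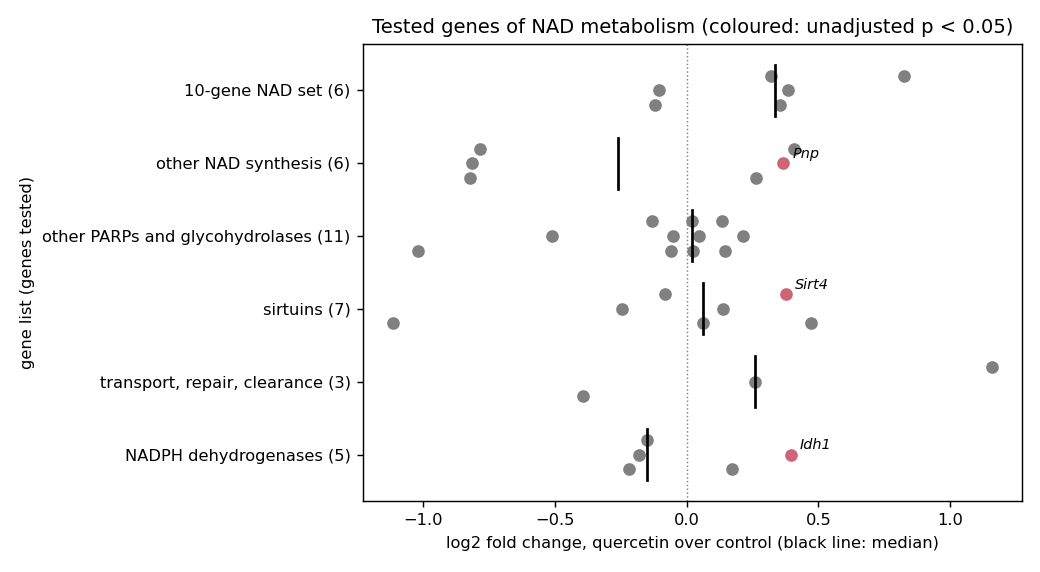
Log2 fold change of quercetin over control for the tested genes of NAD metabolism, 1 point per gene, by list, with the median of each list as a black line. The coloured points are *Pnp*, *Sirt4* and *Idh1*, whose unadjusted p was under 0.05, and 0 of the 6 genes in the top row are coloured.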

How the data were processed

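Reads from 6 oocyte pools were prepared with the Smart-seq HT kit. The paper names Hisat2 and GRCm38.91, while the submitters' processing notes name CASAVA 1.8 and TopHat2 2.0.6, so the aligner is not settled. The authors deposited raw read counts per Ensembl gene. The counting program, its strand setting and its treatment of reads matching several genes are not given in the sources used here.

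Symbols matched 53274 identifiers. Coordinates, exon lengths (all annotated exons merged) and sequence words came from GENCODE release M21 on GRCm38. Genes with enough reads (filterByExpr, minimum count 10) were compared with edgeR 4.0.16 (TMM, glmQLFit, glmQLFTest, no covariate) in R 4.3.3. A standard error is the log2 fold change divided by the square root of F, and intervals use the fit's degrees of freedom. Genes below the filter were compared by exact permutation of log2 CPM (prior count 1). Alternatives used DESeq2 1.42.0, limma 3.58.1, other scalings and filters, single pools left out and a replicate block. Python 3.11.15, scipy 1.17.1 and matplotlib 3.10.9 were used for the remainder.

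Groups and replicate numbers came from the sample labels. Nothing states that pools of a group came from separate cultures. The p-values treat the pools as independent replicates, which is not known. The 10 genes and all lists were chosen with earlier results of these data known. Named in the text are the 10 genes and, of the pathway lists, genes at an unadjusted p under 0.05, the 2 tested genes per list with the highest level per kb, and genes at 0 counts in every pool. *Idh2*, *Tdo2*, *Kynu*, *Afmid*, *Parp16*, *4921529L05Rik*, *Il20ra*, *Cyp19a1*, *Zp2*, *Ooep*, *Tnfaip6*, *Csf1r*, *Cd68* and *Ptprc* were added after their values were seen. The coding start of *Nmnat1* is not reported here.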

Additional observations from a re-analysis of the deposited data

How the results depend on the processing

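Of 89 alternative log2 fold changes of the 6 tested genes, 81 kept their direction and none passed the adjusted threshold. The adjusted p ran from 0.538 to 1.00 in edgeR, DESeq2 and limma. Leaving out each pool in turn moved *Nampt* between 0.31 and 0.48, *Nadk2* between 0.10 and 0.51, *Nadk* between -0.099 (without quercetin pool 2; -0.074 without control pool 2) and 1.40, *Nmnat2* between -0.23 and 0.10, *Nnt* between -0.49 and 1.66, and *Parp1* between -0.39 and 0.072 (without quercetin pool 2). *Nmnat2* turned to 0.065 without control pool 3 and to 0.10 without quercetin pool 3. Without both pools numbered 2, added after seeing the data, *Nadk* turned to -0.50 and *Parp1* to 0.13, 4 genes of the whole table met the adjusted criteria and 183 an unadjusted p under 0.05. With 1 pool left out, 0 to 7 genes met the adjusted criteria (2 without control pool 1, 2 without control pool 2, 7 without quercetin pool 1, 1 without quercetin pool 2 and 6 without quercetin pool 3), 241 (without control pool 2) to 1563 (without quercetin pool 3) had an unadjusted p under 0.05, and 0 to 1 of the NAD genes did, *Nadk* without control pool 3. Without a filter, where more genes were tested, 3 genes met the adjusted criteria and 780 the unadjusted p, and *Nmnat1* could be fitted (log2 fold change 0.95, standard error 0.84). DESeq2 gave 12 genes and edgeR's likelihood ratio test 16, and limma-voom moved *Nnt* to 0.20 and *Nadk* to 0.63. The cause of these moves was not tested where fewer samples or more genes do not account for them by construction.

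Deviations from the group means correlated by 0.296, 0.101 and -0.0303 between pools numbered 1, 2 and 3. The 0.296 was the highest of all control and quercetin pairs, while control pool 2 correlated more with quercetin pool 3 (0.176). The numbers were not used as pairs in the main comparison because the paper's methods do not pair the pools. Whether they mark shared mice or a shared day is not given in the sources used here and was not tested. With the replicate number as a block, 0 genes met the adjusted criteria, 492 had an unadjusted p under 0.05, including 0 of the NAD genes, and log2 fold changes were 0.39 for *Nampt*, 0.63 for *Nadk*, 0.34 for *Nadk2*, 0.72 for *Nnt* (standard error 0.33, against 1.32 without the block), -0.12 for *Nmnat2* and -0.15 for *Parp1*. The unadjusted p of *Nnt* in edgeR's quasi-likelihood test was 0.0679 with the block and 0.546 without it (adjusted p = 0.906 and 0.988). *Nnt* could not be fitted where 10 counts were asked of every pool. Depth limits *Nmnat1*, *Nmnat3*, *Cd38* and *Naprt*, with 32, 7, 5 and 0 counts over the 6 pools.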
